A study of Mus musculus with 51 samples.

Results

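The 8 genes followed here belong to the machinery that moves the glucose transporter GLUT4 to the muscle cell surface, and were measured in 51 libraries of mouse gastrocnemius. They were chosen by name: the Rab GTPase-activating proteins Tbc1d1 and Tbc1d4, the Rab GTPases Rab10 and Rab8a, the GTPase Rac1 with its kinase Pak1, and the SNARE proteins Snap23 and Vamp2. Earlier results of these data were known when that choice was made. All 8 were among the 48294 gene symbols listed in both count tables, and all 8 passed the filter on low counts in both batches, where 12762 and 13093 genes were tested. The study's question was how BMAL1, a transcription factor of the circadian clock, works through hypoxia-inducible factors on glucose metabolism in the muscle of obese mice.

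Each library was made from the whole gastrocnemius of 1 animal with a 3′ tag kit, which reads the end of a transcript, so that a count stands for a transcript end and not for gene length. In batch 1, floxed controls (Bmal1fx/fx) and animals lacking Bmal1 in muscle (Bmal1KO) were fed either a high-fat diet, with 7 controls and 5 knockouts, or regular chow, with 4 controls and 3 knockouts. In batch 2 every animal was on high-fat diet. It held 8 Bmal1fx/fx controls and 4 Bmal1KO, 6 Vhlfx/fx controls and 4 VhlKO, and 6 controls floxed at both genes (Bmal1fx/fx;Vhlfx/fx) with 4 double knockouts (Bmal1KO;VhlKO). VHL marks hypoxia-inducible factors for breakdown, so that its loss keeps them active. No source used here gives the Cre driver, the animals' age and sex, the hour of tissue collection or the exons deleted. The clock makes the hour matter, since a gene with a daily rhythm can differ at 1 hour and not at another.

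After a meal, insulin activates AKT, and during contraction AMPK is activated. Both kinases phosphorylate TBC1D4 (also called AS160) and TBC1D1, which otherwise hold their Rab GTPases in the inactive, GDP-bound state, and 14-3-3 proteins bind the phosphorylated forms. The freed Rabs (RAB8A and RAB10 among them) let GLUT4 vesicles travel to the surface, where VAMP2 on the vesicle pairs with SNAP23 and syntaxin 4 on the plasma membrane, while RAC1 and PAK1 remodel the cortical actin through which vesicles pass. These are steps of protein activity, and the libraries measure transcripts.

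Totals ran from 6.95 to 14.7 M counts per library. Arntl, the gene of BMAL1, was at −1.02 ± 0.22 (log2 fold change ± SE) in Bmal1KO on high-fat diet in batch 1, at −0.91 ± 0.28 on chow and at −0.24 ± 0.13 in batch 2, and passed the test described below only in the first of these. Vhl was at −0.85 ± 0.30 in VhlKO and −0.78 ± 0.26 in double knockouts, and passed in both. A 3′ tag need not lie in the deleted part, so neither gene checks the labels. None of the 8 general muscle fibre markers or 9 fast fibre markers was at 0 in any library, and of the slow fibre markers Myh7b was at 0 in 3. Ighm, an antibody heavy chain gene fixed here as a lymphocyte marker, was at 189 to 346 counts-per-million (CPM) in the 12 Bmal1KO libraries and at 32.01 to 131 CPM in their controls. It also passed the test as higher in double knockouts (1.33, 89.2 to 175 CPM against 44.2 to 50.5) and as lower in VhlKO (−0.77, 27.8 to 62.6 CPM against 54.9 to 87.7). The other 5 lymphocyte markers were each at 0 in 20 to 43 of the 51 libraries. Their sum was 35.3 CPM in chow knockout 1 and 25.4 CPM in chow control 2, and at most 1.69 CPM in each other library, so chow results are also given without these 2 animals. Whether Ighm or lymphocytes have a part in the results below was not otherwise tested. Fewer cells of a type and less RNA per cell cannot be told apart in whole muscle.

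On GRCm38 (GENCODE M21), Tbc1d1 lies at chr5:64156305-64351486 on the plus strand and Tbc1d4 at chr14:101442360-101609191 on the minus strand. Rab10 lies at chr12:3247428-3309969 (minus), where the antisense gene Rab10os overlaps it, Rab8a at chr8:72161200-72183904 (plus), and Rac1 at chr5:143503634-143528036 (minus), overlapped by Daglb on the plus strand. Pak1 lies at chr7:97788541-97912381, Snap23 at chr2:120567671-120601255 and Vamp2 at chr11:69088490-69092384, all on the plus strand. No source used here gives the strand setting of the counting, so reads of Rab10 and Rab10os, and of Rac1 and Daglb, may have been counted for either.

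The start regions of the 4 members that passed the test in the most comparisons are shown because BMAL1 binds the E-box CACGTG and hypoxia-inducible factors bind ACGTG or GCGTG. RefSeq windows of 300 bases (GRCm38.p6, 250 before a start site and 50 after it, read 5′ to 3′ on the gene's strand) were found for 6 of the 8 members, in 8 windows; none was found for Rac1 and Vamp2. Capitals mark the E-box CACGTG, its variant CACGTT, and the hypoxia motifs ACGTG and GCGTG on either strand, the minus-strand copies appearing as their reverse complement. A CACGTG also holds ACGTG on each strand.
Tbc1d1 window 1, chr5:64160010-64160309 (plus): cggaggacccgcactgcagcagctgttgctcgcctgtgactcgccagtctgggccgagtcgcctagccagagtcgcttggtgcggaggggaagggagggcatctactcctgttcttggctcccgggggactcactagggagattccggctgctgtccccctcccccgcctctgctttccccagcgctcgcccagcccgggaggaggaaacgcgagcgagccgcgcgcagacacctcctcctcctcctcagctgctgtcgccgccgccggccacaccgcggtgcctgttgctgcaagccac
Tbc1d1 window 2, chr5:64230107-64230406 (plus): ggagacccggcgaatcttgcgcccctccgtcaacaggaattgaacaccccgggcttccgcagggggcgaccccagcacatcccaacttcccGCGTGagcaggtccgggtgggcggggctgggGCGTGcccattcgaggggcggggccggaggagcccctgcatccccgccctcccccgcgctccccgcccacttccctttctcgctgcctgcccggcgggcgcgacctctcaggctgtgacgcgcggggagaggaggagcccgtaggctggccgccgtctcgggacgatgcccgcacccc
Tbc1d4, chr14:101609142-101609441 (minus): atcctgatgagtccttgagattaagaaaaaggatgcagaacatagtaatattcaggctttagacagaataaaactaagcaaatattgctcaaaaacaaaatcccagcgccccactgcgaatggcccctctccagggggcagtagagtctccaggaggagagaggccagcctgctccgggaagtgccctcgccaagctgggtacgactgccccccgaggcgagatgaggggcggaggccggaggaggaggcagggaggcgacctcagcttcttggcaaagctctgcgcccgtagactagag
Rab10, chr12:3309920-3310219 (minus): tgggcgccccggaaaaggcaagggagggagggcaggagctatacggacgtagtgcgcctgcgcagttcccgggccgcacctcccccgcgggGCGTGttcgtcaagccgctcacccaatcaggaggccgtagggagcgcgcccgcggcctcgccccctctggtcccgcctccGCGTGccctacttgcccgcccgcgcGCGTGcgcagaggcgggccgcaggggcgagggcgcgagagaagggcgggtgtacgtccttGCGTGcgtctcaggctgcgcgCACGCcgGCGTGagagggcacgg
Pak1 window 1, chr7:97788291-97788590 (plus): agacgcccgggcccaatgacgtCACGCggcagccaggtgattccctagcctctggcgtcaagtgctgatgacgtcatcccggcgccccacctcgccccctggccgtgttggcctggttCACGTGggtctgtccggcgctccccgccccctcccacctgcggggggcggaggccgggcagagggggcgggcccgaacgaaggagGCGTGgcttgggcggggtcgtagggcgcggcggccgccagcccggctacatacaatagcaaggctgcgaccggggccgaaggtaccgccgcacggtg
In these letters, Tbc1d1 window 1 and Tbc1d4 held none of the motifs. Both Tbc1d1 windows lie downstream of its GENCODE gene start (64156305), and the letters at that start were not searched. Window 2 of Tbc1d1 held GCGTG at −159 and −128 from the start site. Rab10 held 6 copies of GCGTG. Pak1 window 1 held a CACGTG at −132 and 2 copies of GCGTG, and its window 2 (not shown) held ACGTG at 23. Of the windows not shown, Snap23 held 1 GCGTG and Rab8a none of the motifs. Over all 32851 RefSeq windows of this length, 7.15% held CACGTG, 4.68% CACGTT, 19.6% ACGTG and 32.4% GCGTG. A match is a run of letters, not a bound site.

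**Figure D1:**
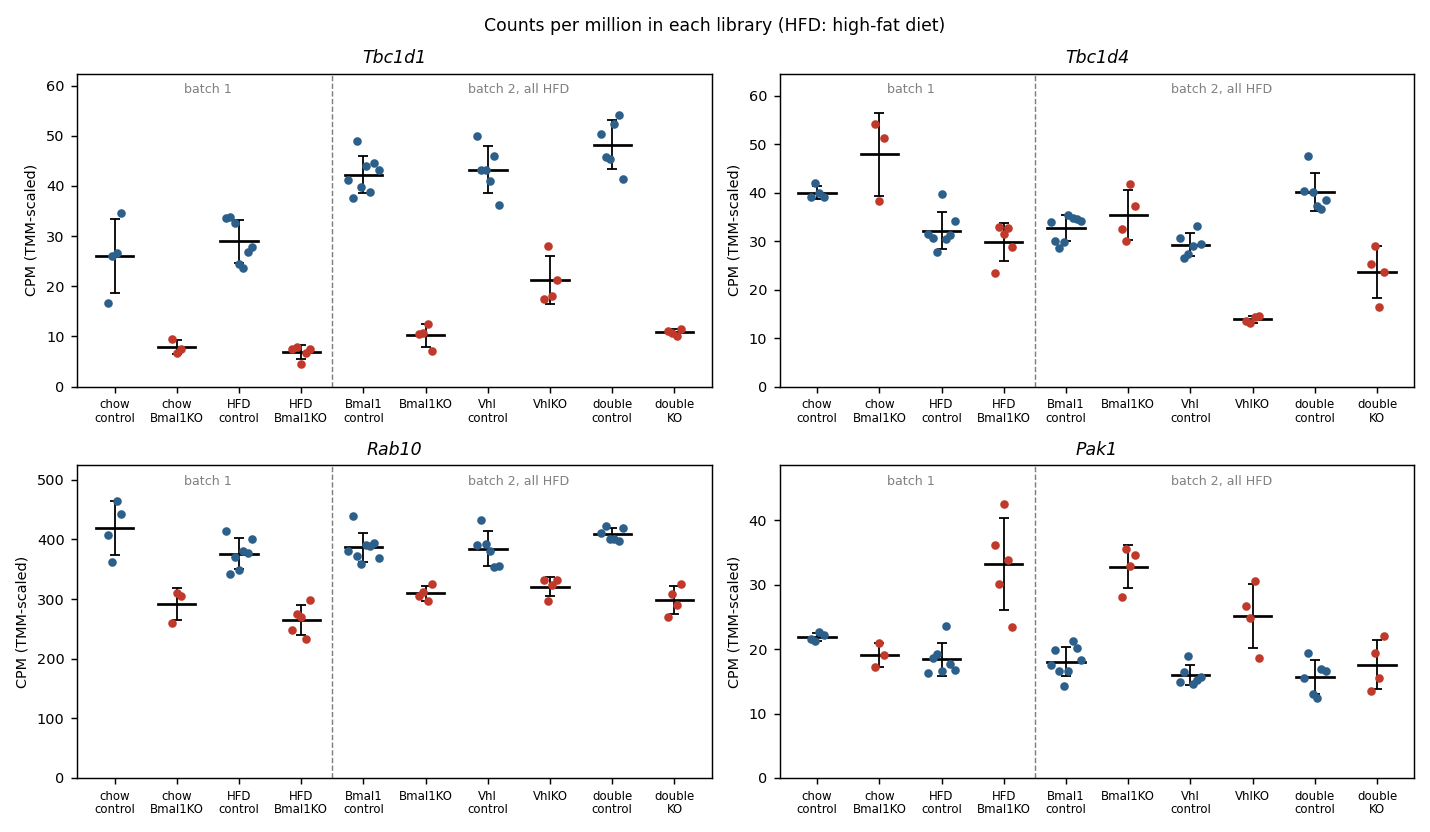
Counts-per-million (CPM, y axis, TMM-scaled within each batch) of Tbc1d1, Tbc1d4, Rab10 and Pak1 in every library (points; blue, controls; red, knockouts), with the mean (bar) and SD (whiskers) of each of the 10 groups on the x axis. Tbc1d1 is lower in each knockout group than in any of its own controls, Tbc1d4 is low in VhlKO and double knockouts, and Pak1 is high in Bmal1KO on high-fat diet but not on chow.

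Tbc1d1, whose protein restrains Rabs and is a target of both AMPK and AKT in muscle, was lower in every knockout group than in any of its controls. Values are CPM, counts-per-million relative to the TMM-scaled library total. In high-fat-fed Bmal1KO of batch 1 it was at 4.497, 6.75, 7.45, 7.49 and 7.95 CPM, and in the 7 controls from 23.6 to 33.7 (median 27.8). On chow the knockouts were at 6.66, 7.56 and 9.42 CPM and the controls at 16.7, 26.1, 26.6 and 34.7. The groups did not overlap on either diet. In batch 2, Bmal1KO were at 7.09, 10.4, 10.7 and 12.54 CPM against 37.5 to 48.9 (median 42.2) in 8 controls. VhlKO lay between: 17.5, 18.1, 21.3 and 28.0 CPM against 36.1 to 49.9 (median 43.2). Double knockouts were at 10.0, 10.7, 11.1 and 11.4 CPM against 41.5 to 54.1 (median 48.0), so that these 4 animals sat within the range of the Bmal1KO and below every VhlKO.

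Tests used edgeR's quasi-likelihood fits over all genes of a batch, with Benjamini-Hochberg adjusted p under 0.05 as the threshold for a call; log2 fold changes are given ± standard error. Loss of Bmal1 lowered Tbc1d1 by similar amounts in both batches: −2.08 ± 0.16 in batch 1 (adjusted p = 5.0e-11) and −2.04 ± 0.12 in batch 2 (adjusted p = 3.3e-18), about 4.24-fold and 4.11-fold lower. Ordered by p, it was number 14 of 12762 genes in batch 1 and number 10 of 13093 in batch 2. The difference between the batches was −0.04, with a 95% interval from −0.40 to 0.32. On chow the change was −1.72 ± 0.21 (adjusted p = 1.4e-06), 3.29-fold lower, and −1.86 (adjusted p = 1.3e-05) without chow control 2 and chow knockout 1. The high-fat effect minus the chow effect was −0.36 (95% interval −0.88 to 0.16; adjusted p = 1.00), so a difference between the diets was not shown. Diet itself left Tbc1d1 without a call in controls (0.16 ± 0.15, adjusted p = 0.74) and in knockouts (−0.20 ± 0.20, adjusted p = 0.70).

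VhlKO had a smaller fall in Tbc1d1, −1.02 ± 0.11 (2.02-fold lower, adjusted p = 8.0e-10; −0.66 without scaling), and the double knockout −2.16 ± 0.12 (4.46-fold lower, adjusted p = 2.6e-19). Tested directly, the Vhl effect was 1.02 ± 0.16 less negative than the Bmal1 effect (adjusted p = 2.6e-06). The double effect was 1.14 ± 0.16 more negative than the Vhl effect on the log2 scale (difference −1.14, adjusted p = 2.6e-06). Against the Bmal1 effect the double effect differed by −0.12, with a 95% interval from −0.45 to 0.21 (adjusted p = 0.70). No setting tried, and no library left out, ended the call on Tbc1d1 in any of the 5 knockout comparisons.

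Tbc1d4, the Rab GTPase-activating protein that AKT phosphorylates after insulin, had another pattern: it was low in VhlKO and double knockouts and was not called for loss of Bmal1 alone. The 4 VhlKO were at 13.1, 13.5, 14.4 and 14.6 CPM, against 26.5 to 33.1 (median 29.1) in controls. Double knockouts were at 16.3, 23.6, 25.3 and 29.1 CPM against 36.6 to 47.6 (median 39.4). Neither pair of groups overlapped, and the VhlKO values were the closest together. In Bmal1KO of batch 2 the values were 30.0, 32.5, 37.4 and 41.7 CPM, which overlapped the 28.6 to 35.5 of controls. Bmal1KO on high-fat diet in batch 1 ranged from 23.4 to 32.9 CPM (controls 27.9 to 39.7).

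The fall of Tbc1d4 was −1.08 ± 0.11 in VhlKO (2.11-fold lower, adjusted p = 1.1e-10) and −0.77 ± 0.10 in double knockouts (1.70-fold lower, adjusted p = 5.9e-08), the latter −0.42 (adjusted p = 0.0016) without scaling. Bmal1 loss gave −0.11 ± 0.10 in batch 1 (adjusted p = 0.67) and 0.12 ± 0.10 in batch 2 (adjusted p = 0.51), with 95% intervals of −0.32 to 0.10 and −0.07 to 0.31. On chow it gave 0.26 ± 0.13 (95% interval −0.01 to 0.53, adjusted p = 0.39). The Vhl effect was lower than the Bmal1 effect by 1.20 (difference −1.20 ± 0.15, adjusted p = 1.5e-08), and the double effect differed from the Bmal1 effect by −0.89 ± 0.14 (adjusted p = 7.6e-06). Double effect minus Vhl effect was 0.31 ± 0.15 (adjusted p = 0.22); without double knockout 3, the animal at 16.3 CPM, it was 0.44 (adjusted p = 0.041).

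Diet moved Tbc1d4 in the animals that lacked Bmal1. Knockouts on chow were at 38.3, 51.3 and 54.3 CPM, and those on high-fat diet at 23.4, 28.7, 31.5, 32.7 and 32.9, with no overlap. That is a fall of −0.68 ± 0.13 (1.60-fold lower, adjusted p = 0.0013); without chow knockout 1 and chow control 2 it was −0.58 (adjusted p = 0.013). Controls were at 39.2, 39.2, 39.96 and 41.9 CPM on chow and at 27.9 to 39.7 (median 31.3) on high-fat diet, a change of −0.32 ± 0.11 that did not pass (adjusted p = 0.13). Without scaling it did (−0.48, adjusted p = 0.027), a setting that moved the median of all genes by −0.18 in this comparison. The diet effect in knockouts minus that in controls was −0.37 ± 0.17 (adjusted p = 1.00, unadjusted p = 0.036), so a difference was not shown. Adipocyte markers were called higher on high-fat diet in knockouts for 2 of 7 genes (median 1.22, summed level 310 to 512 CPM against 162 to 387 on chow). So were 2 of 5 smooth muscle and pericyte markers and 1 of 6 macrophage markers, while 1 of 9 fast fibre markers was lower. In this comparison 3.28% of all genes were called. The part of these markers in the diet results was not tested. The mitochondrial share of counts was 30.1 to 37.9% in high-fat knockouts and 23.3 to 28.9% in chow knockouts; with mitochondrial genes left out the fall of Tbc1d4 was −0.69 (adjusted p = 0.0013).

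Rab10, the Rab that TBC1D4 restrains in fat cells, fell in all 5 knockout comparisons, by less than Tbc1d1. Bmal1KO on high-fat diet were at 233, 248, 270, 274 and 298 CPM in batch 1, below all 7 controls (342 to 414, median 377). Chow knockouts were at 260, 305 and 310 CPM and chow controls at 362, 407, 442 and 465. In batch 2 the Bmal1KO were at 297, 306, 311 and 326 CPM (controls 359 to 439, median 385), VhlKO at 297, 323, 332 and 332 (controls 354 to 433, median 386), and double knockouts at 270, 291, 309 and 325 (controls 397 to 423, median 407). No knockout library reached its own controls.

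In log2 terms Rab10 fell by 0.51 ± 0.08 in high-fat-fed Bmal1KO of batch 1, by 0.52 ± 0.11 on chow (adjusted p = 0.0027, and 0.01 without the 2 chow animals named above) and by 0.32 ± 0.06 in batch 2 (adjusted p = 5.2e-05). It fell by 0.26 ± 0.06 in VhlKO (adjusted p = 0.00069) and by 0.45 ± 0.06 in double knockouts (adjusted p = 6.8e-08). Without scaling the VhlKO value turned to 0.09 (adjusted p = 0.21) and the double knockout value lost its call (−0.10, adjusted p = 0.14); that setting moved the median of all genes by 0.35 in the Vhl comparison and by 0.37 in the double one. With TMM scaling none of the differences between effects was called for Rab10; without scaling the Vhl effect minus the Bmal1 effect was (0.33, adjusted p = 0.0015). Its antisense neighbour Rab10os was called lower in the double knockout (−0.82 ± 0.25, adjusted p = 0.0094) and in no other knockout comparison. Kif3c, the nearest coding gene to Rab10 (55162 bp away), was at 12.1 to 15.0 CPM in Bmal1KO of batch 2 (controls 18.7 to 21.7). In high-fat-fed Bmal1KO of batch 1 Kif3c was at 9.24 to 13.7 CPM (controls 13.3 to 19.9). On chow, in VhlKO and in double knockouts its values also overlapped those of controls.

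Rab8a, the Rab assigned to GLUT4 traffic in muscle cells, rose where Vhl was lost. The 4 VhlKO were at 17.6, 19.2, 19.5 and 21.0 CPM against 10.3 to 18.5 (median 14.1) in controls, where 1 control overlapped them. Double knockouts were at 15.6, 16.3, 16.9 and 17.6 CPM, above all 6 controls (11.9 to 14.2). The changes were 0.43 ± 0.12 (1.35-fold higher, adjusted p = 0.0026) and 0.35 ± 0.11 (1.28-fold higher, adjusted p = 0.013), and without scaling 0.77 and 0.71. Bmal1 loss gave 0.04 ± 0.14, −0.04 ± 0.19 and 0.18 ± 0.11 in high-fat-fed mice of batch 1, chow-fed mice and batch 2, none of them called. The Vhl effect minus the Bmal1 effect was 0.25 ± 0.16 (95% interval −0.08 to 0.57, adjusted p = 0.28), and was called without scaling (0.51, adjusted p = 0.033).

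**Figure D2:**
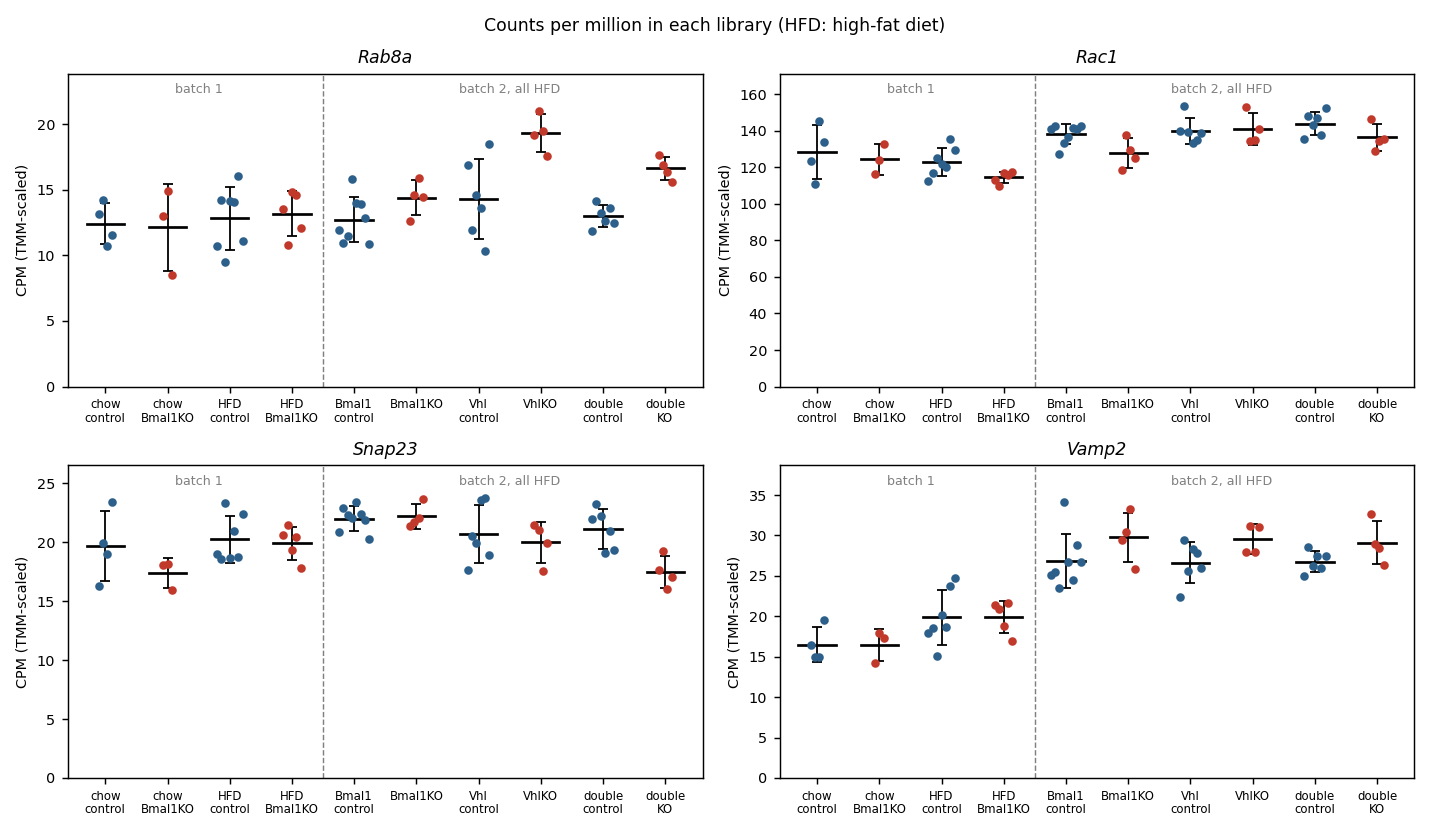
CPM (y axis, TMM-scaled within each batch) of Rab8a, Rac1, Snap23 and Vamp2 in every library (points; blue, controls; red, knockouts), with the mean (bar) and SD (whiskers) of each group on the x axis. Rab8a is higher in VhlKO and double knockouts, whereas the knockout points of Rac1 and Vamp2 overlap those of their controls in each of the 5 pairs, with some knockouts outside the controls' range.

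Rac1, the GTPase that reshapes cortical actin, was not called in any of the 12 comparisons with TMM scaling. Its group means lay between 115 and 144 CPM. Bmal1KO on high-fat diet in batch 1 were at 110 to 117 CPM and their controls at 112 to 135 (−0.10 ± 0.08, 95% interval −0.27 to 0.06, adjusted p = 0.55). In VhlKO the change was 0.01 ± 0.06, with a 95% interval from −0.11 to 0.13. The intervals of all 5 knockout comparisons stayed within −0.27 and 0.17. Without scaling Rac1 rose in VhlKO (0.36) and double knockouts (0.28 in place of −0.08), where the median of all genes moved by 0.35 and 0.37, and its Vhl and double effects were called above the Bmal1 effect (0.39 and 0.31).

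Pak1, the kinase activated by RAC1, rose in Bmal1KO on high-fat diet but had no such rise on chow. In batch 1 the high-fat knockouts were at 23.5, 30.2, 33.8, 36.1 and 42.6 CPM, and the controls at 16.4 to 23.6 (median 17.7), so that knockout 5 and control 5 met. In batch 2 the knockouts were at 28.1, 32.9, 34.7 and 35.5 CPM, above every control (14.3 to 21.3, median 17.9). Chow knockouts were at 17.2, 19.2 and 20.9 CPM, just below the chow controls at 21.2, 21.6, 22.2 and 22.7. VhlKO were at 18.6, 24.8, 26.8 and 30.5 CPM against 14.6 to 18.9 (median 15.4), and the double knockouts at 13.5, 15.5, 19.4 and 22.0 against 12.4 to 19.4 (median 16.0). The double knockouts thus overlapped their controls, while in VhlKO only animal 4, at 18.6 CPM, met a control.

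The rise of Pak1 with Bmal1 loss on high-fat diet was 0.85 ± 0.12 in batch 1 (1.80-fold, adjusted p = 1.9e-06) and 0.86 ± 0.11 in batch 2 (1.81-fold, adjusted p = 1.5e-07), with a difference of −0.01 between the batches (95% interval −0.33 to 0.32). On chow it was −0.20 ± 0.16 (adjusted p = 0.66). High-fat effect minus chow effect was 1.05 ± 0.20 (95% interval 0.65 to 1.45). This was the smallest p of the 12762 genes tested (6.0e-06), but after adjustment it was 0.069 with edgeR. It passed with DESeq2 (adjusted p = 0.025), without a filter on low counts (0.00068), without scaling (0.019) and without high-fat controls 1 (0.048) or 5 (0.021) or high-fat knockout 5 (0.0051), and over all alternatives the adjusted p ran from 0.00068 to 0.42. Diet raised Pak1 in knockouts (0.80 ± 0.15, 1.74-fold, adjusted p = 0.0017; 0.73 and adjusted p = 0.012 without the 2 chow animals), and controls were at −0.25 ± 0.13 (adjusted p = 0.42).

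With Vhl loss Pak1 rose by 0.66 ± 0.13 (1.58-fold, adjusted p = 5.5e-05; 1.01 without scaling), whereas the double knockout was at 0.18 ± 0.13 (adjusted p = 0.28; without scaling 0.53, adjusted p = 0.00039). The double effect was lower than the Bmal1 effect (difference −0.68 ± 0.17, adjusted p = 0.0045), a call that was lost without scaling (−0.41, adjusted p = 0.072). Its difference from the Vhl effect was −0.48 ± 0.18 (adjusted p = 0.097). That difference passed without a filter on low counts (adjusted p = 0.029), without VhlKO 4 (−0.61, 0.026), without double knockout 4 (−0.62, 0.029) and without double control 4 (−0.54, 0.0499). The sum of both single effects was not compared with the double effect.

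Of the SNARE members Snap23 and Vamp2, 1 was called with TMM scaling, in 1 comparison (double knockouts, where 35.4% of all genes were called). Snap23, the plasma membrane SNARE, was at 16.0, 17.1, 17.6 and 19.3 CPM in double knockouts and at 19.1 to 23.3 (median 21.5) in their controls, where only the lowest control overlapped the highest knockout. The change was −0.27 ± 0.09 (1.21-fold lower, adjusted p = 0.013). It did not pass without double knockout 3 (−0.23, adjusted p = 0.064), and without scaling it turned to 0.08 (adjusted p = 0.47). In the other 4 knockout comparisons Snap23 lay between −0.18 and 0.01 and was not called, although without scaling it rose in VhlKO (0.30, adjusted p = 0.0063). Vamp2, the vesicle SNARE, was called in none of the 12 comparisons with TMM scaling, but without scaling it was at 0.50 in VhlKO and 0.47 in double knockouts, both called. It was at 25.9 to 33.3 CPM in Bmal1KO and 23.5 to 34.1 in controls of batch 2 (0.15 ± 0.09, 95% interval −0.02 to 0.32). Diet in controls gave 0.27 ± 0.13 for Vamp2 (unadjusted p = 0.043, adjusted p = 0.37).

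**Figure D3:**
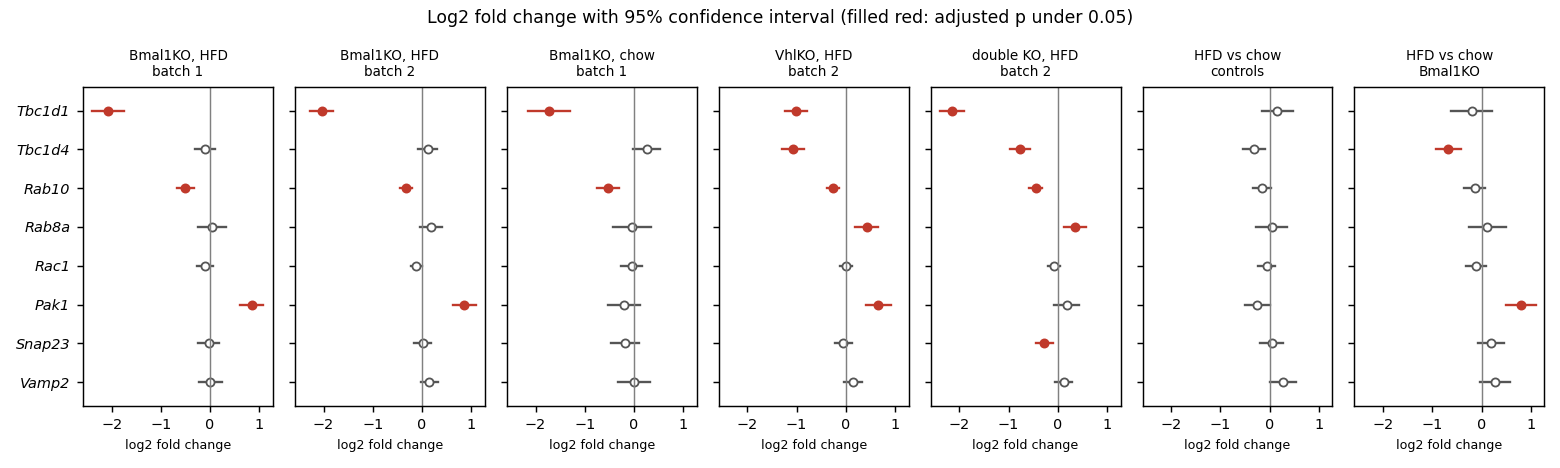
Log2 fold change (x axis) of the 8 genes (y axis) in the 5 knockout and 2 diet comparisons, with unadjusted 95% confidence intervals (lines); filled red points have an adjusted p under 0.05. Tbc1d1 and Rab10 lie left of 0 in all 5 knockout panels, Tbc1d4 has filled points in the VhlKO and double knockout panels and in that for diet in knockouts, and no point is filled in the panel for diet in controls.

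Counted together, 3 of the 8 genes were called for Bmal1 loss on high-fat diet in batch 1 (1 higher, 2 lower), where 9% of all genes tested were called. The median log2 change of the 8 was −0.06, against 0.00 over all genes. On chow 2 of 8 were called, both lower (3.84% of all genes), and in batch 2 again 3 of 8 (1 higher, 2 lower; 13.9% of all genes). In VhlKO 5 were called (2 higher, 3 lower) and in double knockouts 5 (1 higher, 4 lower), but there 37.2% and 35.4% of all genes were. Diet in knockouts called 2 members (3.28% of all genes). Diet in controls called 0 with edgeR (2.37% of all genes), 2 at an unadjusted p under 0.05, and 0 with DESeq2. Since the 8 were chosen with earlier results of these data known, setting these counts beside the shares does not test the pathway.

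**Figure D4:**
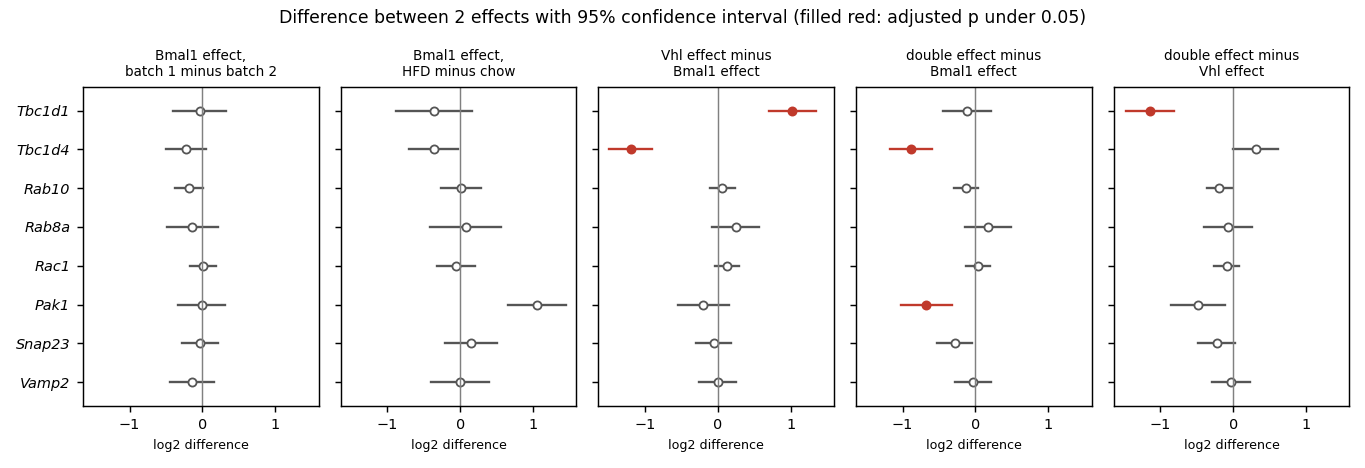
Differences between effects (log2, x axis) for the 8 genes (y axis), with unadjusted 95% confidence intervals (lines); an effect is a knockout against its own floxed control, and filled red points have an adjusted p under 0.05. The first panel has no filled point, the second shows Pak1 at 1.05 without a call, and Tbc1d1 and Tbc1d4 lie on opposite sides of 0 in the third.

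Of the contrasts between effects, Vhl minus Bmal1 called 2 members (Tbc1d1 and Tbc1d4; 25.3% of all genes), double minus Bmal1 called 2 (Tbc1d4 and Pak1; 16.7%) and double minus Vhl called 1 (Tbc1d1; 8.56%). The double and single lines share no animals, since each has controls of its own, but Vhl minus Bmal1, double minus Bmal1 and double minus Vhl share groups with each other. In these contrasts a difference between knockouts cannot be told apart from a difference between floxed lines. High-fat effect minus chow effect called 0 members and 0% of all genes with edgeR; 2 members and 575 genes had an unadjusted p under 0.05, and DESeq2 called 1 member and 3 genes. Batch 1 minus batch 2 called 0 members and 0.00796% of all genes (1 of 12565). None of the members had an unadjusted p under 0.05 there, and DESeq2 also called 0 of them.

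Across all 51 libraries, centred on the mean of each batch, log2 CPM of Tbc1d1 and Rab10 correlated at r = 0.83, Tbc1d1 and Pak1 at −0.64, and Tbc1d1 and Tbc1d4 at 0.24. These libraries share their groups, so r describes the pattern over groups. Of 7553 genes, the 5 most like Tbc1d1 were Sorbs2 (0.95), Atp8a1 (0.94), Rasd2 (0.94), Aebp1 (0.94) and Tef (0.93), the last a clock output transcription factor. The 5 most like Tbc1d4 were Mut (0.85), Aldh6a1 (0.84), Oat (0.84), Myh4 (0.81) and Ryr1 (0.80). Mut and Aldh6a1 are enzymes of branched-chain amino acid breakdown, Myh4 is the fastest myosin heavy chain, and Ryr1 the calcium release channel. Within batch 1 alone Myh4 correlated with Tbc1d4 at 0.40 and Mut at 0.47, so those likenesses come mostly from batch 2 (0.89 and 0.91).

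Pgm2, the nearest coding gene beside Tbc1d1 (27953 bp before it, same strand), fell as well, by 0.90 ± 0.11 and 0.87 ± 0.07 in Bmal1KO on high-fat diet in the 2 batches, by 0.73 ± 0.15 on chow, by 0.39 ± 0.07 in VhlKO and by 0.69 ± 0.07 in double knockouts. Klf3, the coding gene on the other side (451901 bp after Tbc1d1, same strand), did not fall. It was at 30.4 to 42.5 CPM in VhlKO (controls 16.6 to 26.5) and 24.4 to 33.0 in double knockouts (controls 17.1 to 24.2). Its Bmal1KO values overlapped their controls on both diets and in both batches.

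The cargo itself was measured too. Slc2a4, the gene of GLUT4, was at −0.36 ± 0.11 in high-fat-fed Bmal1KO of batch 1 (adjusted p = 0.038), −0.17 ± 0.06 in batch 2 (adjusted p = 0.067) and −0.21 ± 0.15 on chow (adjusted p = 0.60). The batch 1 call was lost without any of 6 libraries, singly: controls 1, 2 and 7 and knockouts 1, 3 and 4 (adjusted p from 0.052 to 0.13). It was also lost without scaling (−0.20, adjusted p = 0.25), without robust fits (0.052) and with a replicate block (0.13). In batch 2 it was called without control 14 (−0.18, adjusted p = 0.048) or knockout 6 (−0.20, adjusted p = 0.045), and with a filter at an average log2 CPM of 1 (0.047). In VhlKO and double knockouts Slc2a4 fell by 0.59 ± 0.07 (adjusted p = 9.5e-10) and 0.56 ± 0.07 (adjusted p = 2.4e-09), and without scaling it was at −0.24 and −0.21, still called. The counts of called genes in the lists below stand beside 9% of all genes in Bmal1KO of batch 1 on high-fat feeding, 3.84% on chow, 13.9% in Bmal1KO of batch 2, 37.2% in VhlKO and 35.4% in double knockouts. These shares are from TMM scaling, with which medians over all genes tested lay between −0.01 and 0.01 in the 5 knockout comparisons. Without scaling, most calls over all genes in VhlKO and double knockouts were higher. Of the 15 tested cargo and sorting genes, Slc2a4 among them, 1 was higher and 1 lower in high-fat-fed Bmal1KO of batch 1. In batch 2 the counts were 2 and 0, in VhlKO 1 and 4, and in double knockouts 2 and 5, while edgeR called 0 on chow. Slc2a4 was itself the lower gene in batch 1, and was among those lower in VhlKO and double knockouts. Without scaling the VhlKO and double knockout counts were 7 and 1, and 8 and 1, where most calls over all genes were also higher. Golga4, a golgin, and Cltc, the clathrin heavy chain, fell in VhlKO with TMM scaling (−0.42 ± 0.07 and −0.33 ± 0.06), and were at −0.07 and 0.01 without scaling. Scamp2, a secretory carrier membrane protein, rose in Bmal1KO in both batches (0.30 ± 0.10 and 0.36 ± 0.08).

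Of 34 other Rab GTPase-activating proteins with a TBC domain, 1 was higher and 1 lower in high-fat-fed Bmal1KO of batch 1 (median −0.02) and 0 higher and 1 lower in batch 2 (median −0.01). On chow edgeR called 0 (1 at an unadjusted p under 0.05, 0 by DESeq2). Evi5 was the lower gene in both high-fat comparisons (−0.46 ± 0.12 and −0.37 ± 0.10), and passed in neither without scaling (−0.30 and −0.29). In VhlKO 4 were higher and 4 lower, and in double knockouts 3 and 6, beside 37.2% and 35.4% of all genes called. Without scaling the counts were 17 and 2, and 15 and 2, where most calls over all genes were also higher. Tbc1d7, a subunit of the TSC complex that restrains mTORC1, fell in both (−0.89 ± 0.14 and −0.79 ± 0.15), and Tbc1d20 rose (0.56 ± 0.10 and 0.53 ± 0.10).

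Among 27 further Rabs, exchange factors, motors and Ral genes, Rab11b, a Rab of recycling endosomes, rose in every Bmal1 knockout: 0.73 ± 0.09, 0.70 ± 0.11 and 0.88 ± 0.07 in high-fat-fed mice of batch 1, chow-fed mice and batch 2. It rose in double knockouts by 0.86 ± 0.07. Myo5a, a myosin motor that carries vesicles, fell in the same 3 Bmal1 comparisons (−0.72 ± 0.19, −0.88 ± 0.25 and −0.90 ± 0.15), though without scaling only the last of these passed. In all, 1 of the 27 was higher and 2 lower on each diet in batch 1, and 1 and 3 in batch 2. In VhlKO 9 were higher and 4 lower, and in double knockouts 4 and 4, beside 37.2% and 35.4% of all genes called. Without scaling the counts were 17 and 0, and 18 and 3, where most calls over all genes were also higher. Rab13, another Rab of GLUT4 traffic, was at 0.85 ± 0.15 in VhlKO and 1.67 ± 0.15 in double knockouts. Rab12 fell on high-fat diet in controls (−0.44 ± 0.10) and in knockouts (−0.40 ± 0.11).

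Of the 23 kinase and 14-3-3 genes upstream of TBC1D1 and TBC1D4, 1 was higher and 6 lower with Bmal1 loss on high-fat diet in batch 1 (9% of all genes called), and 3 and 6 in batch 2 (13.9%). On chow 0 were higher and 4 lower (median −0.18; 3.84% of all genes). Prkab2, a regulatory subunit of AMPK, fell in all 5 knockout comparisons: −0.73 ± 0.09, −0.43 ± 0.12 and −0.58 ± 0.07 with Bmal1 loss (batch 1 on high-fat diet, chow, batch 2), −0.84 ± 0.08 in VhlKO and −0.73 ± 0.08 in double knockouts. The chow call was lost without scaling (−0.36, adjusted p = 0.096). Prkaa2, the AMPK catalytic subunit of muscle, fell in VhlKO (−0.65 ± 0.09) and double knockouts (−0.69 ± 0.08), and Prkag2 rose in VhlKO (1.26 ± 0.15). In these 2 comparisons 8 and 5 of the 23 were higher and 6 and 7 lower, beside 37.2% and 35.4% of all genes called. Without scaling 13 were higher in each and 2 and 3 lower, where most calls over all genes were also higher.

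Of 23 SNARE, SNARE regulator and tether genes, Vamp8, an endosomal SNARE, rose in Bmal1KO on high-fat diet in both batches (0.58 ± 0.14 and 0.44 ± 0.11), in VhlKO (0.66 ± 0.11) and in double knockouts (0.66 ± 0.11). Stx4a, the syntaxin that pairs with SNAP23, rose in VhlKO (0.38 ± 0.07). The list had 1 gene higher and 0 lower on each diet in batch 1, and 4 and 1 in batch 2. It had 4 and 1 in VhlKO, and 8 and 0 in double knockouts, beside 37.2% and 35.4% of all genes called. Without scaling the VhlKO and double knockout counts were 18 and 0, and 17 and 0, where most calls over all genes were also higher. Of 25 Rac and actin genes, 0 were higher and 1 lower with Bmal1 loss in high-fat-fed mice of batch 1, and 2 and 1 in batch 2. On chow edgeR called 0 of them, 0 had an unadjusted p under 0.05, and DESeq2 called 0. Tiam1, an exchange factor that activates RAC1, was the lower gene in both high-fat comparisons (−1.41 ± 0.28 and −1.49 ± 0.25). VhlKO had 11 higher and 1 lower, with Arpc3, of the actin-branching complex, at 0.77 ± 0.11. Double knockouts had 10 and 1, and the list median was 0.27 in each, beside 37.2% and 35.4% of all genes called. Without scaling the VhlKO and double knockout counts were 19 and 0, and 21 and 1, where most calls over all genes were also higher.

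**Figure D5:**
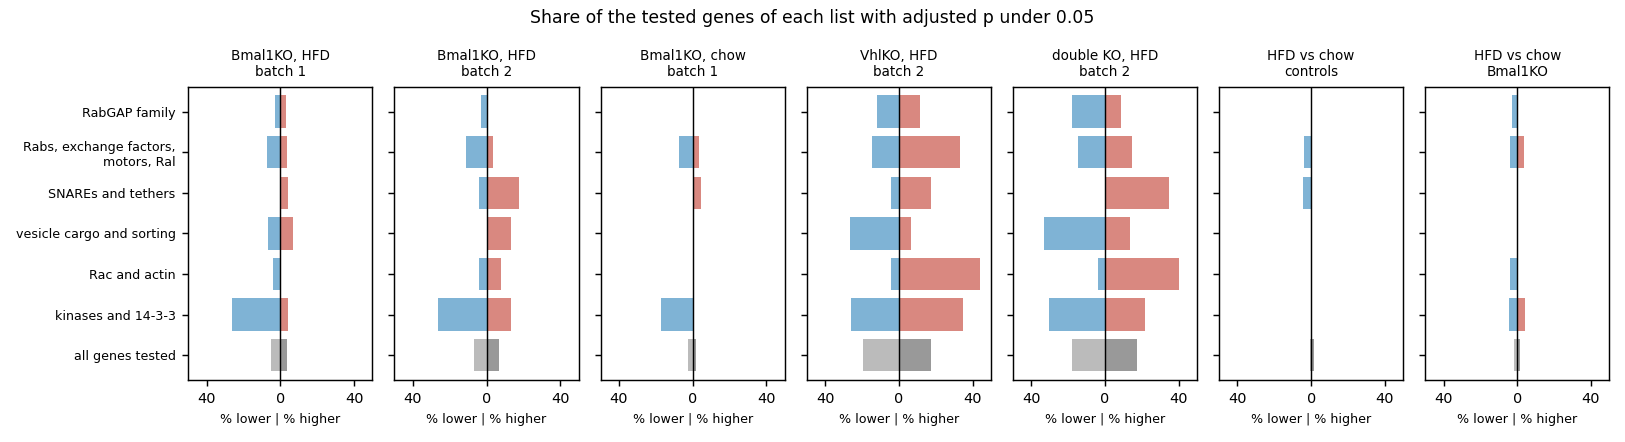
Percent of the tested genes of 6 pathway lists (y axis, the 8 members left out) called higher (right of 0, red) or lower (left of 0, blue) in the 5 knockout and 2 diet comparisons, with all genes tested in grey. The kinase and 14-3-3 list has more of its genes to the left than all genes do in each Bmal1 panel, and the Rac and actin list extends furthest to the right in VhlKO.

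Markers of the muscle fibre and of other cell types also differed with Vhl loss. There 37.2% of all genes were called in VhlKO and 35.4% in double knockouts. Of the 8 general muscle fibre markers 5 were lower and 1 higher in VhlKO (median −0.35, summed level 63475 to 66393 CPM against 76480 to 98593). In VhlKO 8 of 9 fast fibre markers were lower (median −0.56, summed level 54694 to 67058 CPM against 85175 to 106851), and 5 of 8 slow fibre markers higher (519 to 3284 CPM against 796 to 1351). All 6 endothelial markers (218 to 282 CPM against 108 to 127) and all 5 red blood cell markers were higher, as were 4 of 5 smooth muscle and pericyte markers. So were 3 of 5 fibroblast and 2 of 6 macrophage markers. Lower were 2 of 7 adipocyte markers, 1 of 5 nerve and Schwann cell markers and 1 of 3 tested satellite cell markers. Without scaling 4 of 9 fast fibre markers stayed lower in VhlKO and 4 in double knockouts. Double knockouts had 9 of 9 fast fibre markers lower (median −0.49), and of the 8 general muscle fibre markers 5 lower and 1 higher (median −0.44). Of the 8 slow fibre markers edgeR called 0 there, with 1 at an unadjusted p under 0.05 and 0 by DESeq2. In the double knockouts all 6 endothelial and all 5 red blood cell markers were higher, as were 4 of 5 smooth muscle and pericyte markers. So were 2 of 5 fibroblast, 1 of 6 macrophage and 2 of 3 tested satellite cell markers, and of 7 adipocyte markers 1 was higher and 3 lower. Among the 4 VhlKO the slow fibre sum was 519, 1046, 3106 and 3284 CPM in animals 2, 3, 4 and 1. In the same order the fast fibre sum was 67058, 57678, 56353 and 54694 CPM, and Tbc1d4 was at 13.1, 14.4, 14.6 and 13.5 CPM. Tbc1d1 was highest in animal 2 (28.0 CPM). The mitochondrial share of counts was 27.1 to 34.7% in VhlKO (controls 34.0 to 38.8%) and 16.6 to 23.0% in double knockouts (controls 22.3 to 29.4%), and with mitochondrial genes left out each of the 8 members kept its call or lack of one in both comparisons. The part of these markers in the results on VhlKO and double knockouts was not tested. With Bmal1 loss 1 of 9 fast fibre markers was lower in batch 1 on high-fat diet (9% of all genes called) and 2 in batch 2 (13.9%). Of the 8 general muscle fibre markers 1 was higher and 2 lower in the former, and 3 and 2 in the latter.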

How the data were processed

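Whole gastrocnemius was snap frozen, RNA was extracted with TRIzol, and 3′ tag libraries were made from 300 ng of RNA, per the labels' protocols. The submitters' processing notes name FastQC 0.11.4, STAR 2.6.0, HTSeq (no version), edgeR 3.26.8 and the builds mm10 and GRCm38.p4. The tables deposited by the authors hold raw counts per gene symbol, 1 table per batch, with 48321 genes listed in each. No source used here gives HTSeq's strand setting.

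From these counts, groups were taken from the sample labels and each batch was fitted separately with edgeR 4.0.16 (limma 3.58.1, R 4.3.3): filterByExpr, TMM scaling, robust quasi-likelihood fits, Benjamini-Hochberg adjustment over 12762 genes (batch 1) or 13093 (batch 2), and a call at adjusted p under 0.05. A joint fit of 24 libraries and 12565 genes compared the batches. DESeq2 1.42.0, other scalings and filters, an adjusted p of 0.01, a replicate block and leaving out each library were alternatives. CPM are counts-per-million relative to the TMM-scaled total.

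Named genes are the 8 members, the targeted genes, Slc2a4, and up to 3 called genes per list and comparison by smallest p. Also named are the 5 genes most like Tbc1d1 and Tbc1d4 (batch-centred log2 CPM, average of at least 2 in both batches). Of the neighbours of called members, those of Tbc1d1 and Rab10 are named. Of the lists, Stxbp3a, Vamp7, Munc18c and Chc1 had no row. Members and lists were chosen with earlier results of these data known. Each library is 1 animal. The animal numbers only name animals: of 22 same-number pairs in batch 1 and 30 in batch 2, 3 and 1 correlated above 0.1 in their deviations from the group means. The edgeR fit was tested on simulated counts. Promoter windows are RefSeq's (GRCm38.p6), and gene positions GENCODE M21's (GRCm38). Precision rests on 3 to 8 animals per group and 6.95 to 14.7 M counts per library.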

Additional observations from a re-analysis of the deposited data

Results flagged for a closer look

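In 4 groups a library lay apart from the rest of its group by Dixon's criterion, out of 72 groups of member values looked at; chance gives about 1 in 20. Pak1 was at 23.6 CPM in high-fat control 5 of batch 1, where the next control was at 19.2 CPM. Rab10 was at 439 CPM in Bmal1fx/fx control 9 of batch 2 (next 394.1 CPM). Rac1 was at 153 CPM in Vhlfx/fx control 2 (next 139.8 CPM). Tbc1d4 was at 47.6 CPM in double-floxed control 2 (next 40.4 CPM). Leaving out any of these 4 libraries ended no call on its gene in a knockout or diet comparison; without control 5 the high-fat minus chow difference of Pak1 became called (adjusted p = 0.021 with edgeR).

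In 5 cases the effects of 2 knockouts on a member differed by a test of the difference itself, in log2 units. The double effect minus the Bmal1 effect was −0.89 for Tbc1d4 and −0.68 for Pak1 (16.7% of all genes called). The double effect minus the Vhl effect was −1.14 for Tbc1d1 (8.56% of all genes). The Vhl effect minus the Bmal1 effect was 1.02 for Tbc1d1 and −1.20 for Tbc1d4 (25.3% of all genes). Each effect comes from a separate floxed line, so differences between knockouts and between lines cannot be told apart. The control levels differed too: Tbc1d4 was at 26.5 to 33.1 CPM in Vhlfx/fx and at 36.6 to 47.6 in double-floxed controls.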

How the results depend on the processing

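Over all alternatives the 8 members gave 2265 values with the same direction and side of the threshold, 111 that crossed 0 without a call in either setting, 22 that became called, 6 that lost a call and 4 that turned direction with a call. The 4 were all without scaling: Rab10 in VhlKO (0.087), Snap23 in VhlKO (0.30) and in double knockouts (0.080), and Rac1 in double knockouts (0.28). Without scaling, diet in controls called 3 members (Tbc1d4, Rab10 at −0.31 and Pak1 at −0.42) and Vhl minus Bmal1 called 5. High-fat minus chow called 1 (Pak1), as it did without a filter and with DESeq2. With TMM scaling these contrasts called 2.37%, 25.3% and 0% of all genes, in the same order. Calls over all genes also moved without scaling (next paragraph), so these counts do not set the members apart from other genes. At an adjusted p of 0.01 double knockouts kept 3 calls, losing Rab8a and Snap23, and without a filter double minus Vhl called 2. Leaving out single libraries gave 0 to 1 calls for high-fat minus chow and 1 to 2 for double minus Vhl, and the same count or one within 1.5 times for the other comparisons. With the replicate number as a block, double minus Bmal1 called 1 member (Pak1 lost, adjusted p = 0.15); the numbers do not pair the animals (mean r −0.004 in batch 1 and −0.025 in batch 2). The cause of these changes was not tested.

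Counts over all genes moved by over 1.5 times in some settings. At an adjusted p of 0.01 they were 725 for Bmal1 loss in high-fat-fed mice of batch 1 and 258 in chow-fed mice, 121 and 157 for the diet effect without and with the knockout, 1297 for double minus Bmal1, 545 for double minus Vhl and 2084 for Vhl minus Bmal1. Diet in controls called 709 without scaling and 492 without a filter, double knockouts 7008 without scaling, and chow 313 with its own groups alone. High-fat minus chow called 1 without scaling, 8 without a filter, 3 with DESeq2 and 1 with the block. Batch 1 minus batch 2 called 14 without a filter and 0 without scaling or with the block. With the block Bmal1KO of batch 2 called 598, double minus Bmal1 717 and Vhl minus Bmal1 1318. Of single libraries left out, chow knockout 3 lowered the chow count from 490 to 293 and that of diet in knockouts from 419 to 132, and high-fat knockouts 2 and 4 lowered the latter to 272 and 264. Diet in controls (302) gave 181 and 195 without chow controls 3 and 4. Across libraries left out, high-fat minus chow called 0 to 3 genes and batch 1 minus batch 2 called 0 to 2. Without scaling the share of calls that were higher was 76.8% in batch 1 on high-fat diet (42.5% with TMM), 89.5% in VhlKO (47.6%) and 88.9% in double knockouts (49.0%), 69.3% in Bmal1KO of batch 2 (49.9%; 38.1% with the block), 60.8% in chow-fed Bmal1KO (40.4%), 15.1% for diet in controls (63.9%) and 27.2% in knockouts (52.3%), 89.5% for double minus Bmal1 (46.0%) and 84.7% for Vhl minus Bmal1 (48.1%).

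The depth limits the precision of the low members: Rab8a had 87 to 273 counts per library. Tbc1d1 had 57 to 117 in high-fat-fed Bmal1KO of batch 1. Among the 8 members, the standard error was largest for Tbc1d1 in the Bmal1 comparisons (0.16 and 0.21 in batch 1 on high-fat diet and chow, 0.12 in batch 2). In VhlKO and double knockouts it was largest for Pak1 (0.13 in each). A 3′ count does not tell transcript forms apart, and the abundance or phosphorylation of the proteins was not measured.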
